A study of Canis lupus familiaris with 2 samples.

Results

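The 5 genes described here are the lipid droplet proteins CIDEA and CIDEC, UCP1, the uncoupling protein of brown fat, its coactivator PPARGC1A, and ANGPTL4, a secreted inhibitor of lipoprotein lipase. They were measured in the left superior fat pad of the canine left atrium, the fat on the surface of the heart in which an autonomic ganglionated plexus lies. In the lenti-miR-206 pool the levels of CIDEA, CIDEC and ANGPTL4 were lower, and those of UCP1 and PPARGC1A were higher, than in the lenti-control pool. All probe sets annotated to these genes were taken, which gave 6 probe sets (2 for CIDEA and 1 for each other gene) of 1628 in the table, and 5 of 823 named genes. The genes were selected on their differences between these same arrays, so the differences are given as a description, without a test.

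The lenti-control group was injected in the fat pad with a lentivirus carrying a scramble sequence, and the lenti-miR-206 group with a lentivirus that overexpresses miR-206, a microRNA best known from muscle. The animals of the study were adult mongrel dogs of either sex, and both groups underwent thoracotomy. The label of the lenti-miR-206 sample gives a time of 2 weeks after infection, and the methods of the study give the same time for the control. Neither label mentions atrial tachypacing, and the pools were taken to be without it. Total RNA of 3 dogs was mixed for each group, and each mixture was hybridized to 1 Affymetrix canine array, so there are 2 arrays in all. The spread between dogs is therefore unknown and no p-value is given. The virus was injected into whole tissue, which holds fat cells, atrial muscle, ganglia and connective tissue, and the promoter of the vector is not given in the sources used here. For the RNA of its sequenced control and paced dogs, the study kept fat out where it could at dissection, and whether this was done for the dogs given lentivirus is not stated. These mRNA arrays do not read mature miR-206 itself. The sample descriptions name a small RNA library, whereas the design text and the extraction label name mRNA profiling, as the annotated transcripts of the table do, and the pooling is given in the design text too.

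Fat cells keep their triglyceride in lipid droplets. CIDEA and CIDEC sit where droplets touch and let the smaller droplet pass its lipid to the larger. UCP1 lies in the inner mitochondrial membrane of brown and beige fat cells and lets protons flow back without making ATP, which releases heat. PPARGC1A, also called PGC-1 alpha, is a transcriptional coactivator that drives UCP1 in brown fat and mitochondrial genes in muscle and heart. ANGPTL4 inactivates lipoprotein lipase, the enzyme on the capillary wall that frees fatty acids from circulating triglyceride. CIDEA is unusual among droplet proteins, as it is also a marker of brown fat in rodents, so CIDEA and UCP1 are often read together.

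Values are RMA log2 intensities, in which a difference of 1 is a factor of 2, and the difference is always lenti-miR-206 minus lenti-control. The table holds probe sets whose log2 values differ by at least 1 between the arrays, in either direction. Smaller differences were not analysed here, and further probe sets of the 5 genes could be among them. Of the 1628 probe sets, 75.1% were at least 2-fold higher and 24.9% at least 2-fold lower. The median log2 difference was 1.21 over all probe sets and 1.17 over the named genes. Against this background 2 of the 6 member probe sets were higher and 4 were lower. The 13 bacterial spike-in control probe sets had log2 differences between -1.17 and the limit of the table, with a median of -1.08, the 5 GAPDH control probe sets lay between 1.16 and 1.43 with a median of 1.31, and 1 actin control probe set had 1.41.

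CIDEA had the lowest log2 difference of the 5 genes, and it was read by 2 probe sets. CIDEA has the Entrez gene identifier 490559. The log2 intensity of its brighter probe set was 13.00 after the control virus and 10.13 after the miR-206 virus. This is a log2 difference of -2.87, or 7.33-fold lower, so that 13.6% of the level with the control virus was left. Its second probe set had log2 intensities of 11.30 and 7.98, in the same order, a log2 difference of -3.32, or 9.99-fold lower. Both probe sets thus had the higher value in the lenti-control pool, and the one without the suffix s_at, which marks probes that can match more than 1 transcript, had the larger difference. Among the 405 lower probe sets these were the 17th and the 7th lowest. The log2 differences of the CIDEA probe sets lay 0.45 apart. For the 205 genes with exactly 2 probe sets in the table the median of this gap was 0.26 and its upper quartile 0.47. Every probe set in the table differs by at least 1, so the larger size of both CIDEA differences beside this gap was given beforehand. Probe sets under 2-fold are not in the table, so the gap may understate the usual disagreement of probe sets of a gene. It is a technical spread and not the spread between dogs.

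CIDEC, which is the main droplet fusion protein of white fat cells, followed the same direction with 1 probe set, of the suffix s_at (Entrez gene 484662). Its log2 intensity was 11.12 after the control virus and 8.65 after the miR-206 virus. The log2 difference was -2.47, or 5.53-fold lower, and 18.1% of the control level was left. It was the 33rd lowest of the probe sets in the table. The log2 difference of CIDEC lay 0.41 above that of the brighter CIDEA probe set, which is less than the 0.45 between the CIDEA probe sets themselves, so the order of the droplet proteins is not resolved.

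UCP1 was higher in the lenti-miR-206 pool. Its probe set (Entrez gene 403574) is annotated to the canine UCP1 reference sequence, and its log2 intensity was 6.79 after the control virus and 8.87 after the miR-206 virus. The log2 difference was 2.07, or 4.21-fold higher, the 140th highest of the 1223 higher probe sets. The suffix s_at applies here too, and whether transcripts related to UCP1 contributed to its signal was not tested. PPARGC1A (Entrez gene 479127, without the suffix s_at) had log2 intensities of 6.13 and 7.63. Its log2 difference was 1.50, or 2.83-fold higher, and it took rank 465 among the higher probe sets. The UCP1 difference lay 0.57 above that of PPARGC1A on the log2 scale. The lenti-control values of both genes are under the median of all values in the table, 7.21. Without detection calls they are not shown to be above background.

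ANGPTL4 had the smallest difference of the 5 genes and lay close to the 2-fold limit of the table. The log2 intensity of its probe set (Entrez gene 476724, without the suffix s_at) was 6.06 after the control virus and 4.99 after the miR-206 virus. The log2 difference was -1.08, or 2.11-fold lower, with 47.4% of the control level left, and it was the 352nd lowest probe set. Both values are under the median of all values in the table, 7.21. No detection calls were used, so the lower value is not shown to be above background and the difference may be compressed.

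**Figure D1:**
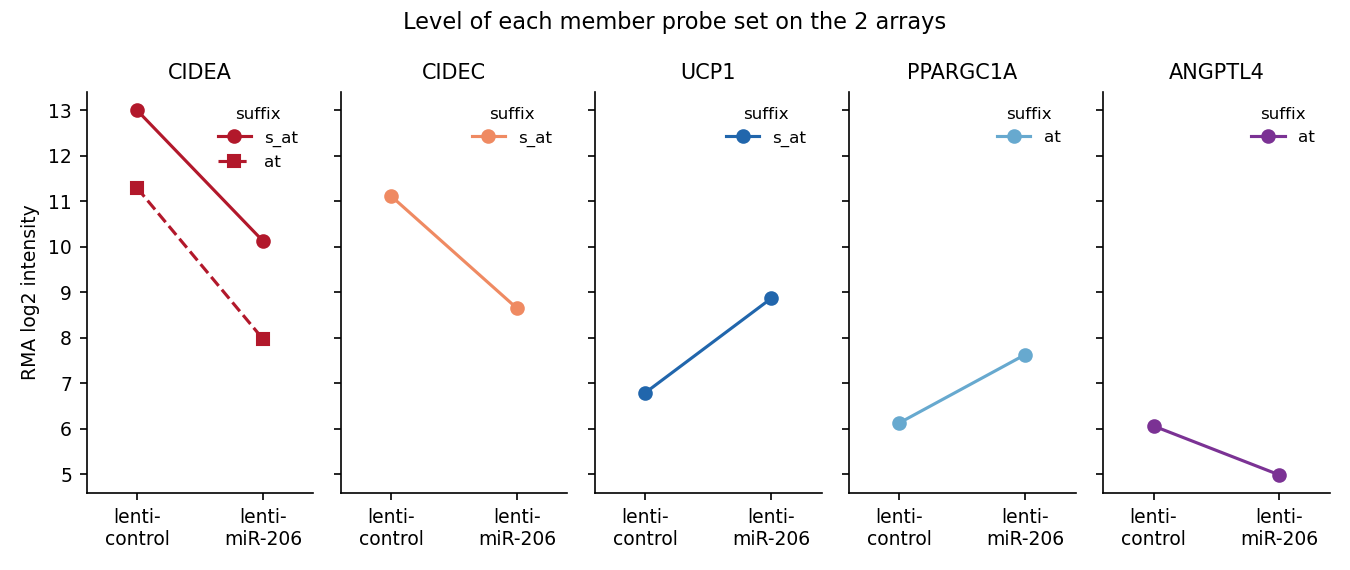
RMA log2 intensity (y axis) of the 6 member probe sets in the lenti-control and the lenti-miR-206 pool (x axis), 1 panel for each gene and 1 array for each point, with the suffix of the probe set in the legend. The lines of CIDEA, CIDEC and ANGPTL4 fall from left to right and those of UCP1 and PPARGC1A climb, and heights are not comparable between probe sets.

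**Figure D2:**
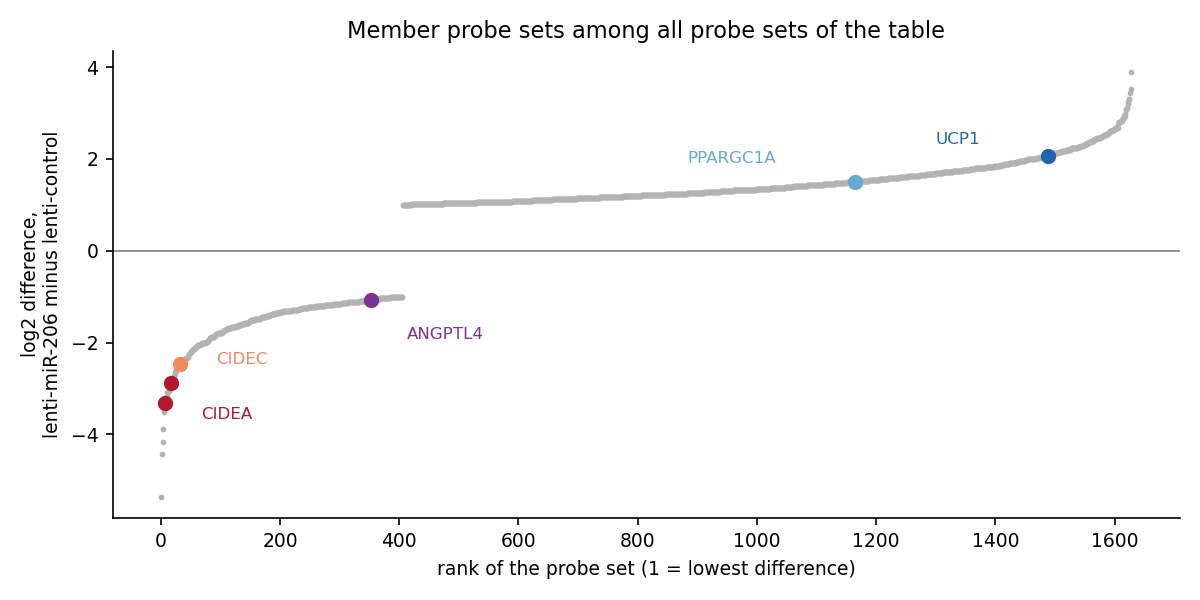
Difference in log2 intensity, lenti-miR-206 less lenti-control (y axis), of all 1628 probe sets in order of their difference (x axis, rank 1 lowest), with the member probe sets in colour. Both CIDEA probe sets and CIDEC lie in the steep left end, ANGPTL4 lies near the empty step between -1 and 1, PPARGC1A lies on the flat part of the higher probe sets, and UCP1 lies near its right end.

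The droplet proteins and the thermogenic pair were compared directly, since a shift equal for all probe sets of an array cancels in their gap. Whether a shift was equal for bright and dim probe sets was not tested. The CIDEA and CIDEC probe sets were brighter than those of UCP1 and PPARGC1A on the lenti-control array, and the GAPDH and spike-in controls had opposite directions. The mean log2 difference was -2.67 for CIDEA and CIDEC and 1.79 for UCP1 and PPARGC1A. These means were 4.46 apart, so the ratio of the thermogenic to the droplet signal was 22.0-fold larger in the lenti-miR-206 pool. That ratio rests on lenti-control values of UCP1 and PPARGC1A that are not shown to be above background. By single genes, the gap ran from 3.97 between PPARGC1A and CIDEC to 4.95 between UCP1 and CIDEA. CIDEA and UCP1, read together as brown fat markers, therefore had opposite directions and lay the farthest apart of these pairs. ANGPTL4 stood between the groups, with a log2 difference 1.39 above that of CIDEC, 2.58 below that of PPARGC1A and 3.15 below that of UCP1.

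The control references changed the size of every difference, and that of ANGPTL4 vanished on 1 of them. Relative to the median of the GAPDH controls, the log2 difference of the brighter CIDEA probe set was -4.18, that of its other probe set -4.63 and that of CIDEC -3.77. On the same reference UCP1 was at 0.77, or 1.70-fold higher, PPARGC1A at 0.19, or 1.14-fold higher, and ANGPTL4 at -2.38. The thermogenic genes thus kept their direction, but neither was among the 4.85% of all probe sets that were still at least 2-fold higher. The same 4 member probe sets were at least 2-fold lower, and so were 24.9% of all probe sets, which are those lower as deposited.

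Relative to the median of the spike-in controls, the brighter CIDEA probe set had a log2 difference of -1.80, its other probe set -2.24 and CIDEC -1.39. UCP1 was at 3.15, or 8.87-fold higher, and PPARGC1A at 2.58, or 5.97-fold higher. ANGPTL4 was at 0.0004, so its decrease matched that of these controls and vanished on this reference. At least 2-fold lower were then 3 member probe sets, those of CIDEA and CIDEC, against 3.69% of all probe sets. At least 2-fold higher were 2, against 75.1%, and these are the probe sets higher as deposited, since this reference only raises values. With a limit of 3-fold on the deposited values, the probe sets of CIDEA and CIDEC remained among the lower ones (8.60% of all probe sets) and UCP1 among the higher (24.5%), while PPARGC1A and ANGPTL4 did not reach it. Only control probe sets that differ by at least 2-fold are in the table, so each median was bound to be at least 1 in size. Controls with smaller differences, if any, did not enter the references. Whether either control set was itself unchanged is not known. GAPDH is a glycolytic gene of muscle as well as a control, and the step at which the bacterial transcripts were added is not given in the sources used here.

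**Figure D3:**
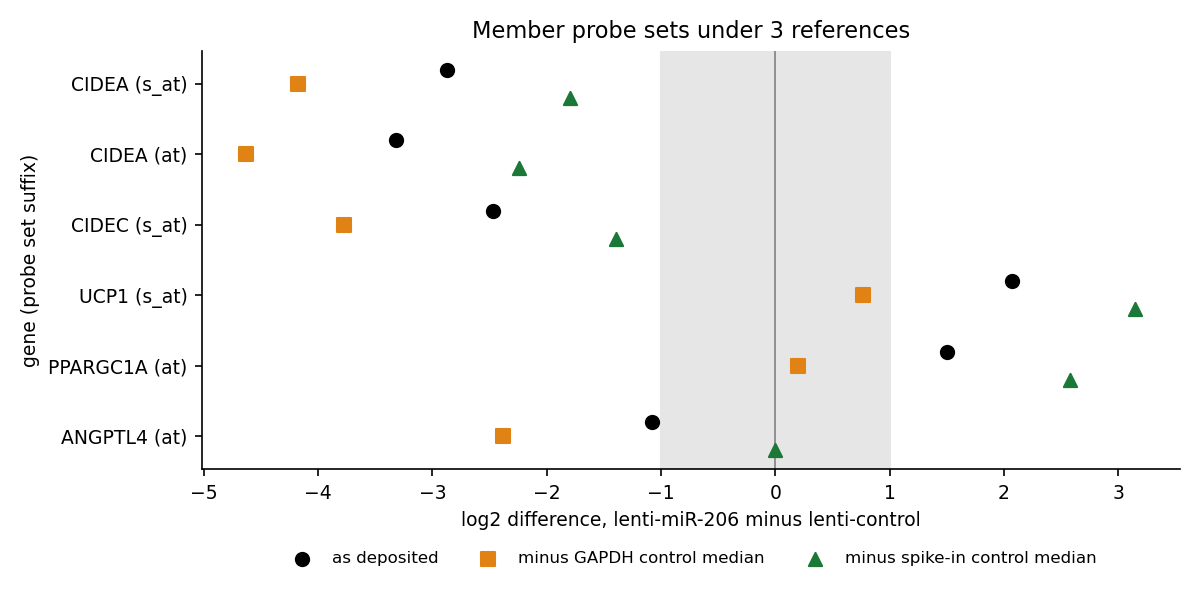
Difference in log2 intensity, lenti-miR-206 less lenti-control (x axis), of the 6 member probe sets (y axis) as deposited (circles), minus the median of the GAPDH controls (squares) and minus the median of the spike-in controls (triangles), with differences under 2-fold shaded. The CIDEA and CIDEC symbols lie left of the shaded band under every reference, UCP1 and PPARGC1A enter the band with the GAPDH reference, and ANGPTL4 lies at 0 with the spike-in reference.

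The other genes of these pathways were taken from 10 lists with 182 different genes, the members left out. Of these genes 25 were in the table, 14 higher and 11 lower, with a median log2 difference of 1.07. Over all named genes, 74.2% were higher and 25.8% lower. Some genes stand in more than 1 list. A gene with several probe sets is given by the one with the highest mean. The listed genes outside the table are not analysed here. Of the genes named below, AQP7, MLXIPL, VLDLR, ANGPTL1, MEF2C, ETFDH and FABP1 were under the median of all values, 7.21, on both arrays. HSD17B13, ACADM, PPARG, PRKAR2B and ACSL1 were under it on 1 array. Without detection calls, values under it are not shown to be above background.

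Few of the listed genes of triglyceride synthesis were in the table. These were 3 of 19, and each was lower, beside 25.8% of all named genes, with a median log2 difference of -2.01. PCK1, which makes glycerol precursors, had log2 intensities of 10.58 after the control virus and 8.52 after the miR-206 virus. The glycerol-3-phosphate dehydrogenase GPD1 had 9.87 and 7.85, and DGAT2, which adds the last fatty acid, 11.48 and 10.01. Their log2 differences were -2.05, -2.01 and -1.47, and with the spike-in reference -0.98, -0.94 and -0.39, all short of 2-fold. Of 17 genes of intracellular lipolysis, PRKAR2B, a regulatory subunit of protein kinase A, was 4.40-fold lower and the glycerol channel AQP7 was 2.03-fold lower. With the spike-in reference the AQP7 difference was 0.055 on the log2 scale. Of 14 adipogenic transcription factors, PPARG, the master regulator of fat cells, had a log2 difference of -2.29 (9.16 and 6.88), and MLXIPL, a glucose-sensing factor of lipogenesis, -1.20.

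Of 16 lipid droplet coat and assembly genes 2 were in the table, and these went the other way. Both were higher, on the GAPDH reference too. They had to stay higher on the spike-in reference, which only raises values. Of all named genes 74.2% were higher as deposited, 36.8% relative to GAPDH and 78.5% relative to the spike-in controls. So small a count does not describe the list. FITM1, which helps droplets bud from the endoplasmic reticulum and is the form of skeletal muscle and heart, had log2 intensities of 7.24 and 8.78, a log2 difference of 1.54. HSD17B13, a droplet-bound enzyme best known from liver, had 6.24 and 8.62, a log2 difference of 2.39. CIDEA and CIDEC thus differed in direction from both other droplet genes in the table.

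ANGPTL4 acts on lipoprotein lipase, and that enzyme was lower as well. LPL had log2 intensities of 11.57 after the control virus and 9.92 after the miR-206 virus, a log2 difference of -1.65, which was -0.57 relative to the spike-in median. Of the 18 genes of lipoprotein lipase and its control, 3 were in the table. FABP4, the fatty acid carrier of fat cells, was 2.63-fold lower, and VLDLR, a receptor that helps fatty acid uptake in heart and fat, was 2.99-fold higher. Of 7 other angiopoietin-like genes, ANGPTL1 was in the table with a log2 difference of -1.30, from values of 4.98 and 3.68, near the lowest value of the table, 2.95.

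UCP1 and PPARGC1A had company in the list of the thermogenic and brown fat programme. Of its 33 genes 5 were in the table, and each of the 5 was higher, as were 74.2% of all named genes. Their median log2 difference was 1.48. They were CKMT2, a mitochondrial creatine kinase (4.93-fold), the fatty acid carrier FABP3 (4.04-fold), the calcium pump ATP2A2 (2.79-fold), the cytochrome oxidase subunit COX7A1 (2.37-fold) and CPT1B, which brings fatty acids into mitochondria (2.18-fold). Heart muscle also expresses each of these 5 genes at a high level, and PPARGC1A as well. Relative to the GAPDH controls 3 of the 5 stayed higher, against 36.8% of all named genes, and COX7A1 (-0.062) and CPT1B (-0.18) turned lower. The genes that set brown fat apart from muscle, such as PRDM16, EBF2, ZIC1, LHX8, DIO2 and ELOVL3, are not analysed here.

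Of 32 partners of PGC-1 and genes of mitochondrial biogenesis, MEF2C, a transcription factor of muscle that PPARGC1A coactivates, was in the table, with a log2 difference of 1.06 that turned to -0.25 relative to GAPDH. Of 13 mitochondrial carriers related to UCP1, the ADP/ATP carrier SLC25A4 (1.64) and the oxoglutarate carrier SLC25A11 (1.18) were higher, the latter turning to -0.13 relative to GAPDH. Of 30 PPAR target genes of fatty acid use, 8 were in the table. ACSL1, LPL and FABP4 were lower, with log2 differences of -2.12, -1.65 and -1.40. FABP1, FABP3, ETFDH, CPT1B and ACADM were higher, with log2 differences of 2.53, 2.02, 1.36, 1.12 and 1.07, the last pair turning lower relative to GAPDH. The FABP1 difference rests on a control value of 4.41, which is not shown to be above background. CIDEA, CIDEC, ANGPTL4 and UCP1 are themselves known PPAR targets, so such targets went both ways among the members and in the list. Over all named genes, 36.8% were higher relative to GAPDH and 78.5% relative to the spike-in controls.

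**Figure D4:**
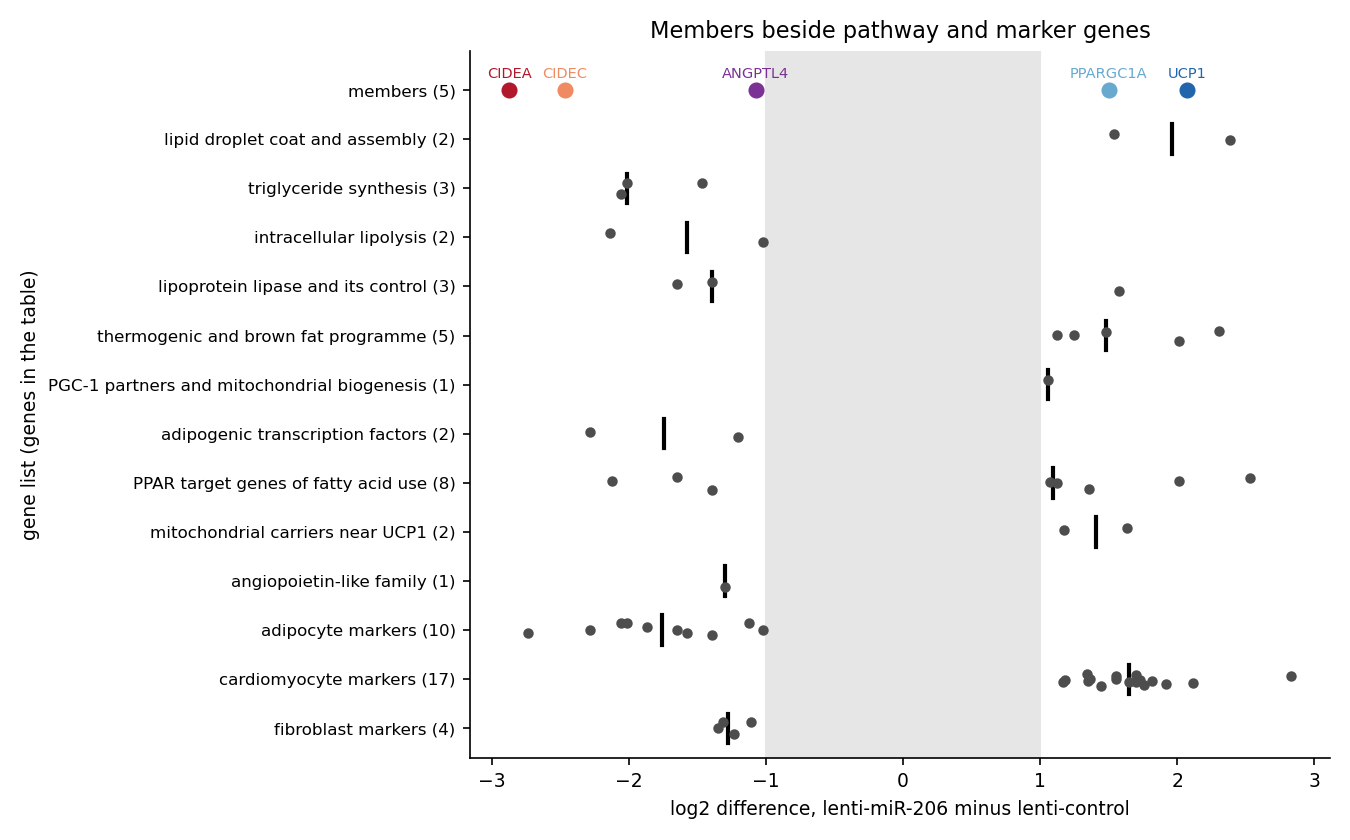
Difference in log2 intensity, lenti-miR-206 less lenti-control (x axis), of the 5 members (top row, brightest probe set), of the genes of 10 pathway lists and of the adipocyte, cardiomyocyte and fibroblast markers (y axis, genes in the table in brackets), with 1 point a gene, medians as black bars, and a shaded band that is empty because the table holds differences of at least 2-fold. CIDEA lies to the left of all 10 adipocyte markers, which are drawn by their brightest probe sets, and UCP1 and PPARGC1A lie within the range of the cardiomyocyte markers, 1.17 to 2.83.

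Markers of fat cells and of heart muscle moved along with the members. Of 23 adipocyte markers 10 were in the table and all 10 were lower, with a median log2 difference of -1.76, and their summed intensity, on the linear scale, was 37237 after the control virus and 11975 after the miR-206 virus. Of 27 cardiomyocyte markers 17 were in the table and all 17 were higher, with a median of 1.65 and summed intensities of 48797 and 136333. With all summed markers of a list past 2-fold in the same direction, each sum was bound to change by at least 2-fold. The listed markers outside the table are not in the sums. MYH7 and MYL7 turned lower relative to GAPDH with these probe sets. Over all named genes, 25.8% were lower and 74.2% higher as deposited. Among 10 fibroblast markers, 4 were in the table and lower, with a median of -1.28. Relative to the spike-in controls the median was -0.20 for the fibroblast and -0.68 for the adipocyte markers, both short of 2-fold. Of the adipocyte markers, FASN (-1.66) and PPARG (-1.21) stayed past 2-fold there, and AQP7 (0.055) turned higher. The cardiomyocyte median relative to GAPDH was 0.34, also short of 2-fold, with NPPB (1.52) past it. The macrophage marker LYZ and the skeletal muscle marker ACTA1, each the single marker of its list in the table, were higher, LYZ turning lower relative to GAPDH, and no endothelial marker of the 10 listed is analysed here. The fat cell marker ADIPOQ (13.21 and 11.34) and the heart muscle marker MYL7 (13.09 and 14.27) were above the median of the table on both arrays, while some markers, such as AQP7, were below it on both. In bulk tissue, fewer cells of a type and less RNA of a gene per cell cannot be told apart, and the part of the cell mixture in the differences of the 5 genes was not tested.

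Set beside these markers, the brighter CIDEA probe set had a lower log2 difference than the brightest probe set of each of the 10 adipocyte markers in the table, and lay 1.11 below their median, or 2.16-fold. The other probe set of FASN, the fatty acid synthase, was at -3.16, so CIDEA and FASN overlapped across probe sets. CIDEC was lower than 9 of the 10 by the brightest probe set, FASN being the exception, and lay 0.71 below the median. ANGPTL4 lay 0.68 above it. The gap of CIDEC to the median is close to the spread of probe sets, given that 10% of the 205 genes with 2 probe sets had them more than 0.88 apart. With the brightest probe sets UCP1 lay above 15 of the 17 cardiomyocyte markers, but 8 of the 17 have a probe set above it. Its log2 difference was 0.43 above their median, which is under the upper quartile of 0.47 for the gap between probe sets of a gene. PPARGC1A lay above 6 of them and 0.14 below their median, which is within the median gap of 0.26 between probe sets of a gene. Only markers past the 2-fold limit of the table enter these medians, all in the same direction within a list. Each median was therefore bound to be at least 1 in size. Listed markers outside the table do not enter, and the distances of the members depend on this.

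With 2 arrays the likeness of a gene to a member is no more than a near log2 difference. The nearest genes were ACSS3, S100B and THBS4 to CIDEA (-2.79, -2.96 and -2.77), and MGST1, LOC476006 and MTARC1 to CIDEC (-2.46, -2.44 and -2.51). For UCP1 they were FHOD3, USP28 and UNC45B (2.07, 2.10 and 2.11), of which FHOD3 and UNC45B act in muscle filaments. For PPARGC1A they were NDUFS1, MBOAT2 and COX17 (1.50, 1.50 and 1.51), of which NDUFS1 and COX17 belong to the respiratory chain or its assembly. For ANGPTL4 they were CCDC160, PTPN4 and LOC475353 (-1.08 each). Many genes have differences of this size, so such neighbours are a description of the table.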

How the data were processed

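Biotin-labelled RNA, pooled from 3 dogs a group, was read on 1 Affymetrix canine array a group. The values that the authors deposited are log2 intensities, which the submitters' processing notes credit to RMA. RMA corrects the background, normalizes arrays on the premise that most transcripts are alike, and summarizes probes. It compresses differences of dim probe sets. Its version, the genome build and which arrays were normalized jointly were not given in the sources used here. Listed are 1628 probe sets and 19 controls, all of which differ by a log2 value of at least 1, with no unmapped sample columns.

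Differences were computed in Python (3.11.15) using pandas (2.3.3) and numpy (2.4.6), and plotted in matplotlib (3.10.9). A run on simulated differences without noise checked the calculation alone, not the reported values. Symbols came from the platform annotation, which the RefSeq gene table of UU_Cfam_GSD_1.0 updated by Entrez identifier (1102 of 1182 probe sets with a single symbol; 80 kept the platform symbol). Coordinates are left out, since the array values name no build, and sequences are not used here. Precision is limited by the single array a group, and no test was made.

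The members, 10 pathway and 6 marker lists were chosen with earlier results of these data known. Named were all member probe sets, at most 5 genes a list (largest absolute difference) and the 3 genes nearest to each member. Exceptions are the whole list of PPAR targets and MYL7 and MYH7, added after the values were seen. Alternatives were the mean of probe sets, leaving out s_at and x_at or dim probe sets (higher value under 7.21), a 3-fold limit, and the GAPDH, spike-in and all-control references. References to the adipocyte and cardiomyocyte markers were added after seeing the data.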

Additional observations from a re-analysis of the deposited data

How the results depend on the processing

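No paired analysis was possible because each group has 1 array of pooled RNA, and no array could be left out for the same reason. No spread is known, so any change of a value counts as a move. With the mean of all probe sets CIDEA had a log2 difference of -3.10 and the gap between the thermogenic and the droplet genes was 4.57. Without s_at and x_at probe sets CIDEA was at -3.32 and the gap, then of PPARGC1A and CIDEA, was 4.82. CIDEC and UCP1 had no probe set left under that setting, nor had ANGPTL4 without dim probe sets, which changed no other value. For CIDEA, CIDEC, UCP1, PPARGC1A and ANGPTL4, in that order, the log2 differences were -4.18, -3.77, 0.77, 0.19 and -2.38 relative to the GAPDH median, and -1.80, -1.39, 3.15, 2.58 and 0.0004 relative to the spike-in median. They were -1.84, -1.44, 3.10, 2.53 and -0.048 relative to the median of all controls, which are mostly spike-ins. Relative to the adipocyte markers they were -1.11, -0.71, 3.83, 3.26 and 0.68, and relative to the cardiomyocyte markers -4.52, -4.11, 0.43, -0.14 and -2.72, both chosen after seeing the data. The ANGPTL4 difference therefore vanished with the spike-in reference and turned with the adipocyte reference. PPARGC1A turned with the cardiomyocyte reference. Each turn follows by construction from a shift larger than the difference. The marker medians hold only markers past the 2-fold limit of the table, so each was bound to be at least 1 in size. CIDEA, CIDEC and UCP1 kept their direction under each setting that gave them a value. In part this was given beforehand. The GAPDH and cardiomyocyte references only lower a value, so they could not turn CIDEA or CIDEC. The spike-in, all-control and adipocyte references only raise a value, so they could not turn UCP1. The count of 2 higher member probe sets became 1 at 3-fold and 0 relative to GAPDH. Relative to GAPDH the higher genes became 3 of 5 for the thermogenic list, 3 of 8 for PPAR targets (5 as deposited) and 1 of 2 for the carriers related to UCP1, and relative to the spike-in controls 1 of 2 lipolysis genes became higher. The other counts of higher genes recomputed, for pathway lists with at least 2 genes in the table, were within 1.5-fold of the values given. Of the lists not recomputed in this way, MEF2C, LYZ, MYH7 and MYL7 turned lower relative to GAPDH, and AQP7 among the adipocyte markers turned higher relative to the spike-in controls. Depth does not apply to arrays. No detection call shows that the dim ANGPTL4 signal, or the lenti-control signals of UCP1 and PPARGC1A, lie above background.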
